A study of Bubalus bubalis with 6 samples.

Results

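The genes described here are those of immune cell surface proteins, cytokines and chemokines on a buffalo (Bubalus bubalis) DNA methylation array. They were chosen by name alone: CD antigens, interleukins and their receptors, Toll-like receptors, chemokines and chemokine receptors, tumour necrosis factor (TNF) and interferon families, interferon regulatory factors, Fc receptors and BOLA genes. That gave 134 genes of 7932 named on the array, with 268 of 177440 probes, and 48 of these genes had a probe that could be tested, of 4286 tested genes in all. The name pattern also took in CD3EAP, a subunit of RNA polymerase I, CD2AP, an adaptor protein, and BOLA1, a protein unrelated to the immune BOLA genes, and these were kept. Sperm DNA of 3 subfertile bulls (1, 4 and 5) and 3 high-fertile bulls (2, 3 and 5) was hybridised, with 1 array for each bull. An antibody to 5-methylcytosine had captured the methylated fragments of sonicated DNA from frozen semen. This immunoprecipitated (IP) DNA carried Cy5, while the bull's own input DNA carried Cy3. Breed, age and the way fertility was scored are not given in the labels. Values are log2(IP/input), centred so that 0 is the array's median probe, and they rank regions by antibody-bound DNA without giving the share of methylated cytosines.

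In mammals, 5-methylcytosine sits mostly at CpG dinucleotides. Sperm DNA is methylated over most of its length, apart from CpG islands, many of which lie at promoters. The genes described here encode the molecules by which white blood cells recognise one another and microbes: surface antigens, receptors such as the Toll-like receptors that bind microbial molecules, the soluble interleukins, TNF ligands and chemokines, and the interferon regulatory factors that switch on their targets. BOLA genes are the cattle names for the major histocompatibility complex (MHC), whose proteins present peptides to T cells. Most are active in leukocytes and not in sperm, but the array reads DNA, so it shows no expression and the labelled cell type could not be checked against expressed markers. Semen can hold other cells, and their share of the DNA cannot be told apart from methylation within sperm.

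Some of the probes behind the group differences, date differences and contrasts between neighbours described below are shown here with CpG dinucleotides in capitals. Positions are those of the files, in which chromosome numbers reach 29, and the sources used here name neither the genome build nor the strand. The files give no exon, intron or promoter class.
CD8B, chr11:49785985-49786044: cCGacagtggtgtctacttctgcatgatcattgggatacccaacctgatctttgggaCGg
CXCL10, chr6:94129414-94129473: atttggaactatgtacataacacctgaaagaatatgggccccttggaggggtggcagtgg
IL6, chr4:32751354-32751413: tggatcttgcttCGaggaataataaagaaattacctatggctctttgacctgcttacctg
IL6, chr4:32753775-32753834: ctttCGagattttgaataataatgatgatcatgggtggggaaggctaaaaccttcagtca
BOLA, chr23:27597789-27597848: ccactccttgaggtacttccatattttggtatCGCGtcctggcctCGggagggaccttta
CCR9, chr22:54779489-54779548: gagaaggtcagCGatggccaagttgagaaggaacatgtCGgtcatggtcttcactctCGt
IL20RB, chr1:134306948-134307007: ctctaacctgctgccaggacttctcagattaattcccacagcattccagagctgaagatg
beside IRF3, chr18:56019844-56019903: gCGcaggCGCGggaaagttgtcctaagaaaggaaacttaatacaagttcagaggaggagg
beside IRF3, chr18:56019852-56019911: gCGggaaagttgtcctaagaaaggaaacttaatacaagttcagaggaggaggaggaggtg

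A probe was tested where the input of each of the 6 bulls stood well above background, and only 70 of the 268 immune gene probes (26.1%) met this, against 38.7% of all named probes and 62.4% of all probes. The immune gene probes were poor in CpGs, with a median of 1 per 60 bases and 111 probes (41.4%) without any. Among all named probes 33.1% had none, and among all probes 9.85%. Probes that were tested had a median of 2 CpGs, and those that were not had 0.5. A gene's value is the mean over its tested probes, of which 32 of the 48 genes had 1, 12 had 2 and 4 had 3 or more.

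Coverage differed between families. All 4 interferon regulatory factor genes were testable, as were 5 of 7 MHC genes and 8 of 13 interleukin receptors. By contrast 7 of 37 CD antigens, 3 of 17 interleukins, 2 of 6 Toll-like receptors and 1 of 5 Fc receptors could be tested. Both interferon receptor genes and the interferon gene IFNG, which encodes the interferon of activated T cells, had no tested probe. Among the 86 genes left out were CD4 and CD8A, co-receptors of T cells, CD28, their costimulatory receptor, IL2, their growth factor, TLR2, TLR3 and TLR9, sensors of bacterial lipoproteins and of nucleic acids, and IL10, an inhibitory cytokine. For 14 of the 86, no bull had input above background at any probe, while for 15 the best probe had it in 5 of the 6 bulls.

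Signal also differed between arrays. Scan dates in the file headers put subfertile bulls 1 and 5 and high-fertile bull 5 on later dates, and subfertile bull 4 and high-fertile bulls 2 and 3 on a first date. Input was well above background at 64.9, 34.3 and 55.2% of immune gene probes in subfertile bulls 1, 4 and 5, and at 36.6, 39.9 and 78.0% in high-fertile bulls 2, 3 and 5. At the 70 tested probes the IP signal was well above background for 70, 45 and 65 in the subfertile and for 38, 55 and 60 in the high-fertile bulls. The 3 arrays of the first date were the dimmer ones in both channels. The arrays lay on 2 slides, 1 with subfertile bull 5 and high-fertile bull 5 and the other with the remaining 4, and the software's CGH protocol was used for subfertile bull 1, while the other headers name its ChIP protocol.

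Across all 6 bulls the immune gene regions lay near the array median. Over the 48 genes the median of the mean levels was -0.05 log2, against -0.14 over all 4286 tested genes. Of the 48, 20 had a mean above 0 and 28 below. In all 6 bulls IL16 and IL1RAP were above 0, 2 of 48, whereas 3.22% of all genes were. CXCL14, CXCL5, IL10RB and IL7 were below 0 in all 6, 4 of 48, against 18.8% of all genes. For CXCL5 and IL10RB the IP signal was well above background in no bull of the first date, so their values there are not measured levels. The tested probes alone had array medians of -0.33 to -0.26 on the first date and -0.10 to -0.01 on the later dates. Counts above or below 0 thus depend on the centring. They describe levels and were not tested.

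IL1RAP, the accessory chain that lets the interleukin 1 receptor signal, had the highest mean, at a tested probe without any CpG. It stood at 1.27, 0.79 and 0.97 in subfertile bulls 1, 4 and 5 and at 1.52, 1.78 and 0.50 in high-fertile bulls 2, 3 and 5. The groups overlapped. IL16, a chemoattractant of CD4+ cells, was at 0.80, 0.35 and 0.88 in subfertile bulls, and at 0.03, 0.01 and 1.18 in high-fertile bulls. Its lowest values belonged to the 2 high-fertile bulls of the first date.

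TNFAIP8, a TNF-induced regulator of cell death, and CD2, an adhesion molecule of T cells and natural killer cells, had the next highest means, at 0.97 and 0.73. Both were high on the first date alone. TNFAIP8 was at -0.24, 2.02 and -0.06 in subfertile bulls 1, 4 and 5, and at 1.39, 3.30 and -0.57 in high-fertile bulls 2, 3 and 5. CD2 was at 0.24, 2.16 and -0.10 in the subfertile bulls, and at 0.65, 2.17 and -0.75 in the high-fertile bulls. In both genes the 3 bulls of the first date were above the 3 of the later dates.

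At the low end stood IL10RB, the shared chain of receptors of the interleukin 10 family, with -0.78, -0.87 and -1.45 in subfertile and -1.50, -0.61 and -1.45 in high-fertile bulls. Its tested probe also contains no CpG. Its IP signal was well above background in 2 subfertile bulls and in no high-fertile bull, so the high-fertile values are not measured levels. Their mean was -1.19 with an upper bound of 0.10, and no fold is given. CD180, a Toll-like-receptor-related protein of B cells, likewise had such IP signal in 2 subfertile bulls and in no high-fertile bull. CXCL14, a chemokine of epithelia, was at -0.32, -1.22 and -0.56 in subfertile bulls and at -1.14, -0.34 and -0.61 in high-fertile bulls. TNFSF13B, the B cell survival factor BAFF, was at -0.07, 0.07 and -1.68 in subfertile and at 0.41, -0.37 and -1.57 in high-fertile bulls, so that subfertile bull 5 and high-fertile bull 5, which share a slide, were the lowest of their groups.

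**Figure D1:**
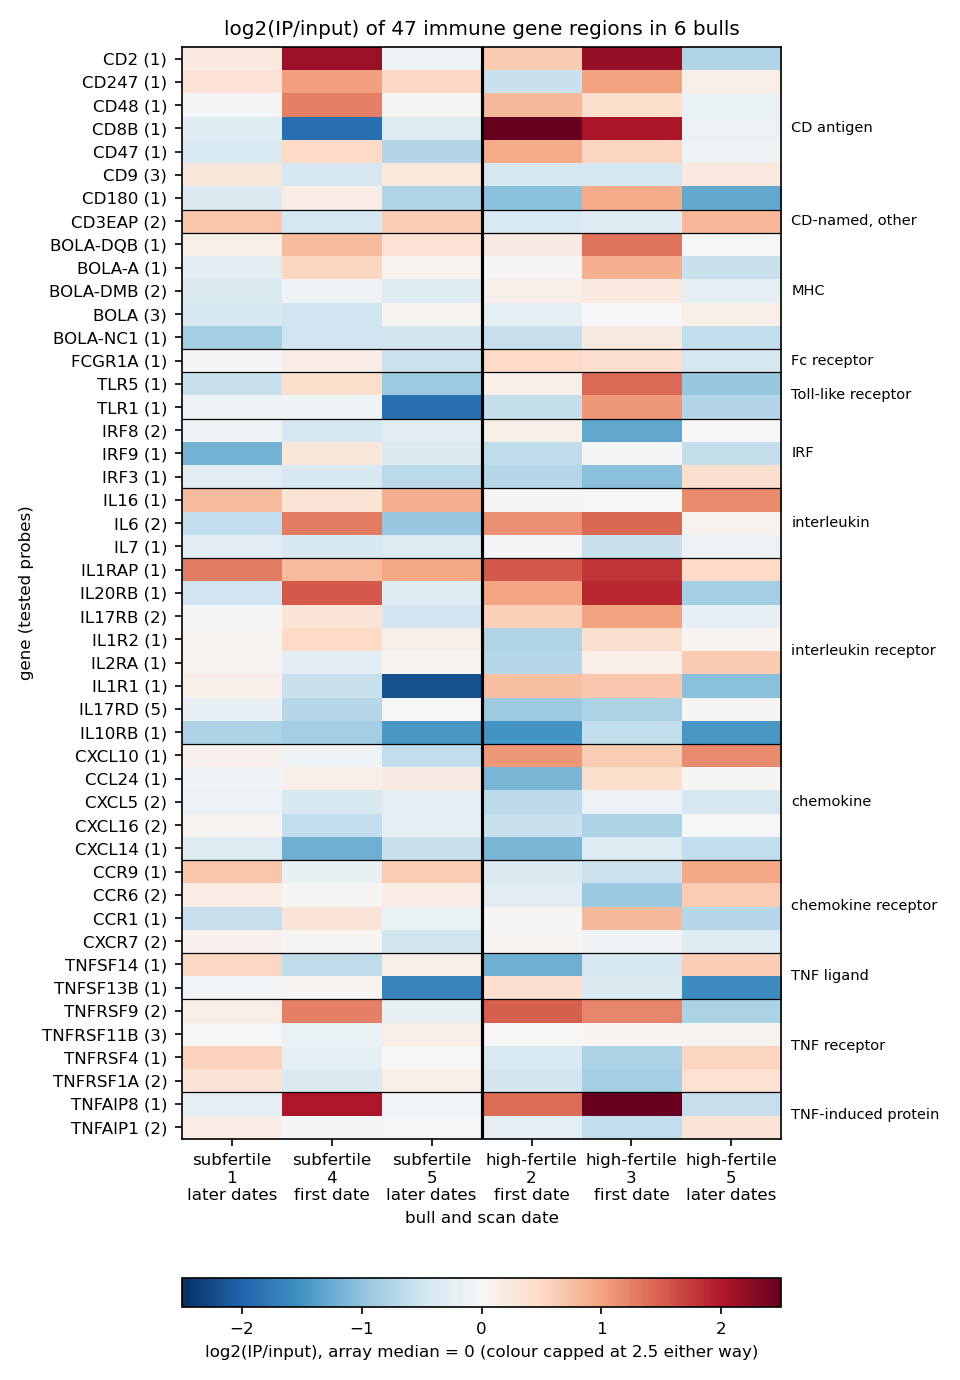
Colour shows log2(IP/input) of 47 tested immune gene regions (rows, by family, with the number of tested probes in brackets) in 3 subfertile and 3 high-fertile bulls (columns, with the scan date). Columns of the same date look more alike than columns of the same group, as at TNFAIP8 and IL20RB, while CD8B reaches 2.78 in high-fertile bull 2 and -1.89 in subfertile bull 4.

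The main question of the study is whether methylation differs between subfertile and high-fertile bulls. No immune gene region passed the test. With the group as the only term, limma with Benjamini-Hochberg adjustment over all genes called 0 of 4286 gene regions (0.0%), and so 0 of the 48. Differences are subfertile minus high-fertile: 24 of the 48 were above 0 and 24 below, with a median of -0.00 log2 against 0.02 over all genes. Centring on the tested probes alone shifted this split to 19 above and 29 below. An unadjusted p below 0.05 was found for 2 of the 48 genes (4.17%), CD8B and CXCL10, beside 34 of all genes (0.793%), and for 4 of the 70 probes, beside 1.84% of all tested probes. The groups did not overlap for the same genes, both lower in subfertile bulls, beside 166 of all genes (3.87%). A fit that added the scan session as a block also had 0 calls by limma, and the unadjusted p was below 0.05 for these 2 genes and for 2.66% of all genes.

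CD8B encodes the beta chain of the CD8 co-receptor of cytotoxic T cells and has a single probe, with 2 CpGs near its ends. Its level was -0.30, -1.89 and -0.35 in subfertile bulls 1, 4 and 5, against 2.78, 2.03 and -0.15 in high-fertile bulls 2, 3 and 5. The groups did not overlap, but high-fertile bull 5 lay only just above subfertile bull 1. The difference was -2.40 log2 (SE 0.80, 95% interval -4.27 to -0.53), with an adjusted p of 0.9999 by limma. On the later dates alone it was -0.18 (adjusted p = 0.954), on the first date alone -4.29 (adjusted p = 0.0513), and with the session as a block -2.23. Within the slide of 4 bulls it was -3.50 and between the 2 bulls of the other slide -0.20. IP signal was well above background in 2 of 3 subfertile and in all 3 high-fertile bulls. The exception was subfertile bull 4, which alone stands for its group on the first date, so its -1.89 is not a measured level and the sizes of -4.29, -3.50 and -2.40 rest on it in part or whole. With normexp background correction, which compresses dim signals, the difference was -0.52.

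CXCL10 encodes a chemokine that interferon induces and that draws in activated T cells, and its tested probe contains no CpG. It stood at 0.10, -0.09 and -0.62 in subfertile bulls 1, 4 and 5, against 1.08, 0.63 and 1.18 in high-fertile bulls 2, 3 and 5. All 3 subfertile bulls were below all 3 high-fertile bulls. The difference was -1.16 log2 (SE 0.32, 95% interval -1.92 to -0.41; limma, adjusted p = 0.9999). On the later dates it was -1.44, with an adjusted p of 0.0197, and -0.94 on the first. It was -1.80 and -0.84 within the slides of 2 and of 4 bulls. IP signal was well above background only in subfertile bull 1 and high-fertile bull 5. The values of the other 4 bulls are therefore not measured levels, which covers all 3 bulls of the first date, and neither the order of the bulls nor these differences has a firm size. With normexp correction the difference was -0.34. The gene's other probe had input above background in no bull.

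**Figure D2:**
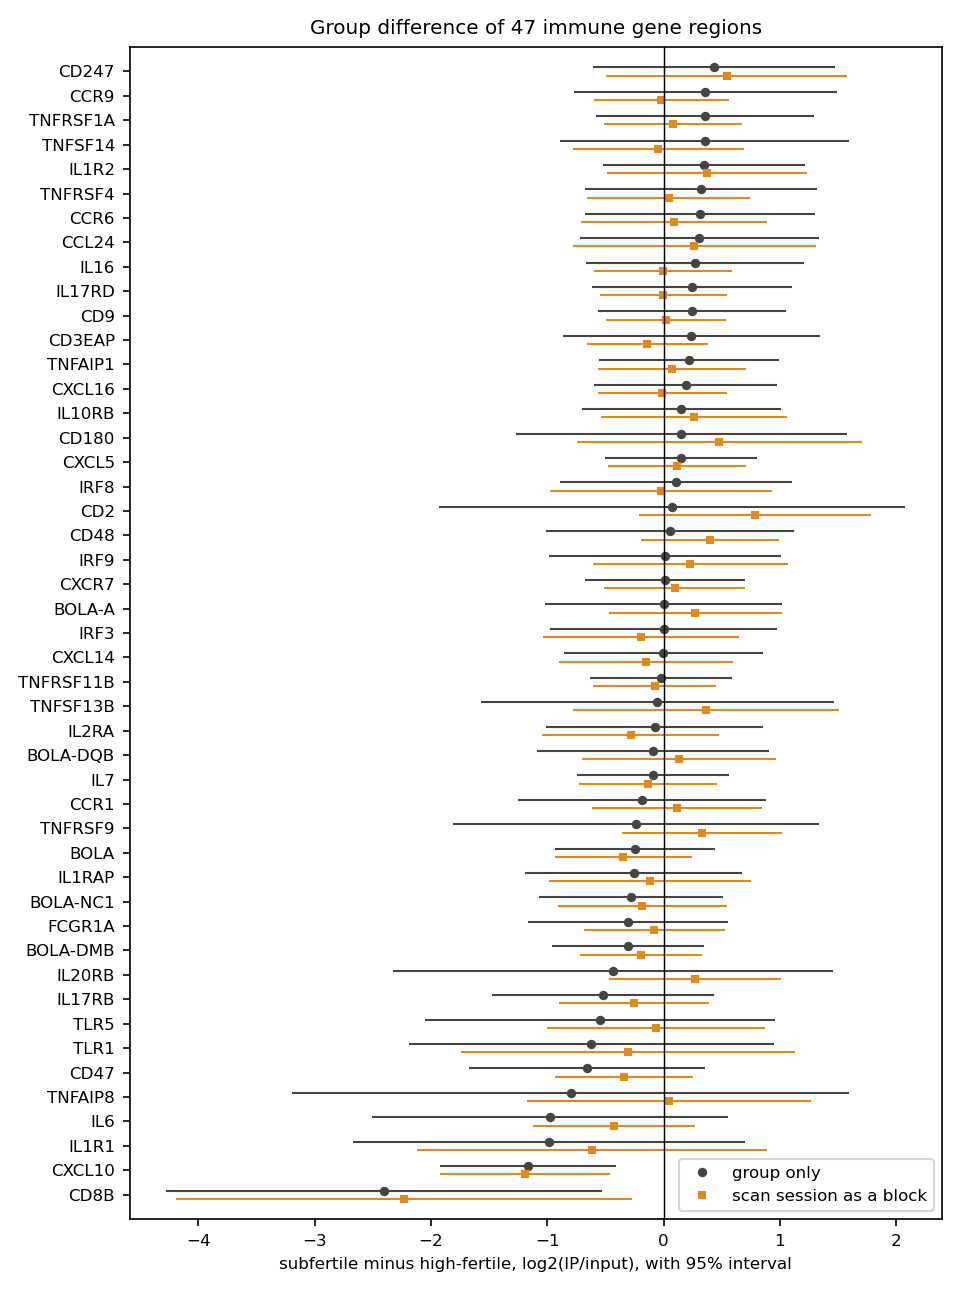
Points are differences in log2(IP/input), subfertile minus high-fertile (3 bulls each), for 47 immune gene regions, with 95% intervals as bars; circles have the group as the only term and squares add the scan session as a block. The intervals of CD8B and CXCL10 exclude 0 in both fits before adjustment over all genes, and with the block the bars of 45 of the 47 genes are shorter.

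Interleukins and their receptors had no called member. IL6, a cytokine of inflammation, was at -0.62, 1.30 and -0.95 in subfertile bulls, against 1.13, 1.44 and 0.09 in high-fertile bulls, a difference of -0.97 (SE 0.65). It was -0.87 on the later dates alone (limma, adjusted p = 0.143) and 0.01 on the first date alone. Its 2 tested probes, both with 1 CpG, disagreed. The probe starting at 32753775 was at -0.49, 0.04 and -1.75 in subfertile and at 1.46, 0.73 and 0.51 in high-fertile bulls, which did not overlap, a difference of -1.63 (SE 0.47). The probe starting at 32751354 was at -0.74, 2.56 and -0.15 in subfertile and at 0.81, 2.15 and -0.34 in high-fertile bulls, with the first date high in both groups. Over both probes the IP signal was well above background at 4 of 6 subfertile and 5 of 6 high-fertile spots. Not every value is therefore a measured level.

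IL1R1, the signalling receptor of interleukin 1, was at 0.16, -0.55 and -2.18 in subfertile and at 0.75, 0.68 and -1.04 in high-fertile bulls (-0.99, SE 0.72), with IP well above background in 1 bull of each group. IL1R2, the decoy receptor of the same cytokine, was at 0.07, 0.51 and 0.15 in subfertile and at -0.76, 0.39 and 0.06 in high-fertile bulls (0.35, SE 0.37). Both pairs of groups overlapped. IL17RB, the receptor of interleukin 25, was at -0.02, 0.34 and -0.48 in subfertile and at 0.60, 1.01 and -0.21 in high-fertile bulls (-0.52, SE 0.41). IL17RD, a relative of the interleukin 17 receptors that damps growth factor signals, had 5 tested probes and stood at -0.21, -0.70 and -0.01 in subfertile and at -0.90, -0.79 and 0.03 in high-fertile bulls. Its difference was 0.25 (SE 0.37), and it was -0.00 with the session as a block.

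Among CD antigens, CD47, the surface signal that keeps macrophages from engulfing a cell, was at -0.39, 0.49 and -0.73 in subfertile bulls, against 0.92, 0.54 and -0.12 in high-fertile bulls (-0.66, SE 0.43). CD247, the zeta chain of the T cell receptor, was at 0.36, 1.03 and 0.51 in subfertile bulls, against -0.56, 0.998 and 0.16 in high-fertile bulls. It had the highest difference of the 48 (0.43, SE 0.44), and neither gene passed the test. CD9, a tetraspanin needed on the egg for sperm fusion in mice, had 3 tested probes and was at 0.29, -0.41 and 0.27 in subfertile and at -0.39, -0.43 and 0.24 in high-fertile bulls. The 3 bulls of the later dates lay above the 3 of the first date.

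The 5 tested MHC genes had differences of -0.31 to 0.00, 4 of them below 0, and none was called. The name BOLA covers 3 tested probes at 2 places on chromosome 23, and their mean was -0.41, -0.50 and 0.06 in subfertile and -0.24, -0.01 and 0.14 in high-fertile bulls (-0.25, SE 0.29). The first probe, printed above, stood at -0.86, -1.34 and -1.08 in subfertile bulls, against 0.04, -0.31 and -0.29 in high-fertile bulls, without overlap (-0.90, SE 0.30). A second probe that starts 20 bases further on was at -0.37, -0.54 and -0.13 in subfertile and at 0.48, -0.16 and -0.01 in high-fertile bulls, which overlapped. The remaining probe, about a megabase away, ran the other way, at 0.00, 0.38 and 1.40 in subfertile and at -1.23, 0.44 and 0.74 in high-fertile bulls. Near-identical MHC genes can share DNA with a probe, so the source of these signals is uncertain.

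In the TNF and chemokine receptor families the differences were also within the spread of the bulls. TNFRSF1A, the main TNF receptor, was at 0.34, -0.36 and 0.16 in subfertile and at -0.47, -0.84 and 0.38 in high-fertile bulls (0.35, SE 0.40). TNFRSF4, the costimulatory receptor OX40, was at 0.58, -0.24 and -0.01 in subfertile and at -0.38, -0.79 and 0.54 in high-fertile bulls (0.32, SE 0.42). In both genes high-fertile bulls 2 and 3 were below every subfertile bull, while high-fertile bull 5 was among the highest. TNFRSF11B, the decoy receptor osteoprotegerin, varied least: its 3 overlapping probes averaged 0.02, -0.17 and 0.16 in subfertile and -0.01, 0.04 and 0.07 in high-fertile bulls (-0.03, SE 0.26).

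CCR6, the receptor of CCL20, was at 0.18, 0.04 and 0.18 in subfertile bulls, against -0.26, -0.93 and 0.64 in high-fertile bulls (0.32, SE 0.42). Its group difference was -0.46 on the later dates alone. Its probe starting at 105812692 had a difference of 0.57. CCR9, a receptor that guides T cells to the gut, was at 0.70, -0.19 and 0.64 in subfertile bulls, against -0.35, -0.54 and 0.96 in high-fertile bulls (0.36, SE 0.48), and with the session as a block the difference was -0.02. The probe of CXCL16, a chemokine of macrophages, starting at 26983366 had a group difference of 0.43. For the CD3EAP probe starting at 52803176 the group difference was 0.55, but another spot with the same sequence, given below, had the groups in the other order. On the later dates alone limma called 95 gene regions (2.22%), 2 of them among the 48. CXCL10, above, was 1 of them. With only 1 bull in one of the groups on each date, that bull is assumed to vary like the rest.

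The interferon regulatory factor genes IRF3, IRF8 and IRF9 lay below the array median on average, with means of -0.45, -0.33 and -0.42 and group differences of 0.00, 0.11 and 0.01. Both tested Toll-like receptors were lower in subfertile bulls without passing the test, TLR1, a partner of TLR2, by -0.62 and TLR5 by -0.55. The 5 tested chemokines had differences of -1.16 to 0.31 and the 4 chemokine receptors of -0.19 to 0.36.

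What the 6 bulls can show was limited. The 95% interval of the group difference lay within 1 log2 unit of 0 for 10 of the 48 genes, BOLA, BOLA-DMB, CXCL14, CXCL16, CXCL5, CXCR7, IL7, IRF3, TNFAIP1 and TNFRSF11B, and for 27 with the session as a block. In BOLA-DMB, CXCL5, TNFAIP1 and TNFRSF11B a tested probe had no IP signal well above background on the first date. The BOLA-DMB probe had none in any high-fertile bull either. These intervals therefore rest in part on values that are not measured levels. BOLA averages probes that ran opposite ways, as given above. The IRF3 difference near 0 joins opposite estimates, -0.88 among bulls of the later dates and 0.48 among those of the first. Each of these estimates has a group with only 1 bull. The IRF3 interval therefore does not bound the difference within a date. Signs also differed between dates for CXCL14, CXCL16, TNFAIP1 and TNFRSF11B, with a smaller gap than for IRF3. In simulated data of the same size, the group test recovered 7.58% of genes changed by 1 log2 unit, 52.2% of those changed by 2 and 92.5% of those changed by 4. The simulated noise was drawn independently for each gene and bull, with that gene's spread within groups. It lacked the scan-date pattern that the real arrays share, described below, so these shares may not hold for the real data.

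Arrays resembled one another by scan date. Across the 48 genes, which are not independent replicates, Pearson's r between 2 bulls of the same date group was 0.36 to 0.69, and -0.31 to 0.16 between bulls of different ones. In a fit of scan date that also held the fertility group, 861 of 4286 gene regions were called by limma between the later and the first date (20.1%), of which 7.3% of all genes were higher and 12.8% lower on the later dates. Of the 48 immune genes it called 12 (25%), 3 higher and 9 lower. The dates did not overlap for 24 of the 48, 11 higher and 13 lower on the later dates, beside 48.6% of all genes. Centred on the tested probes alone, the calls over all genes were 171 higher and 876 lower, in place of 313 and 548, and those among immune genes were 2 higher and 13 lower. The balance turned under other settings: normexp correction gave 10 immune genes higher and 8 lower (835 and 585 over all genes), and requiring IP well above background on all arrays gave 7 and 6 of 27 (482 and 412 over all genes). No immune gene was called without high-fertile bull 5 or without subfertile bull 4, each the only bull of its group on its date.

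IL20RB, a receptor chain for interleukins 19, 20 and 24, had the smallest adjusted p and no CpG in its probe. It was at -0.50, -0.30 and -0.85 on the later dates (subfertile 1, subfertile 5 and high-fertile 5), against 1.53, 0.99 and 1.89 on the first date (subfertile 4, high-fertile 2 and high-fertile 3). It fell by 2.11 log2 (SE 0.31, limma, adjusted p = 0.0112). TNFRSF9, the costimulatory receptor 4-1BB, averaged -0.27 ± 0.47 on the later dates and 1.32 ± 0.15 on the first date (SD, n = 3 each; -1.70, adjusted p = 0.0130). Of its 2 tested probes, the one starting at 42600274 had no IP signal well above background on the first date, so the size of -1.70 is not firm, while the one starting at 42600114 had it in all 6 bulls. TNFAIP8 averaged -0.29 ± 0.26 on the later dates and 2.24 ± 0.97 on the first date (-2.54, adjusted p = 0.0209). In each of these genes the later dates lay wholly below the first.

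IL6 averaged -0.49 ± 0.53 on the later dates and 1.29 ± 0.15 on the first date (SD, n = 3 each; -1.64, limma, adjusted p = 0.0148), and CD2 averaged -0.20 ± 0.50 and 1.66 ± 0.87 (-2.13, adjusted p = 0.0197). Also lower were CD48, a ligand of natural killer cell receptors (-1.04), CD47 (-0.95) and TLR5, the receptor of bacterial flagellin (-1.44). For CD47 and TLR5 the IP signal was well above background in only 1 of the 3 bulls of the first date, and for CD48 in 2.

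The 3 genes that were higher on the later dates were CD3EAP, CCR9 and TNFSF14. CD3EAP was at 0.70, 0.61 and 0.83 on the later dates, against -0.44, -0.38 and -0.30 on the first date (1.13, SE 0.22, limma, adjusted p = 0.0179). CCR9 averaged 0.77 ± 0.17 on the later dates and -0.36 ± 0.17 on the first date (SD, n = 3 each; 1.14, adjusted p = 0.0246). TNFSF14, the ligand LIGHT of lymphotoxin receptors, averaged 0.43 on the later dates and -0.76 on the first date (1.20, adjusted p = 0.0388). Its IP signal was not well above background on any array of the first date, so -0.76 is not a measured level. Against an upper bound of 0.31 there, the measured mean of TNFSF14 on the later dates was at least 1.09-fold higher. This bound concerns the means of these 3 bulls each and does not take in the spread between bulls.

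**Figure D3:**
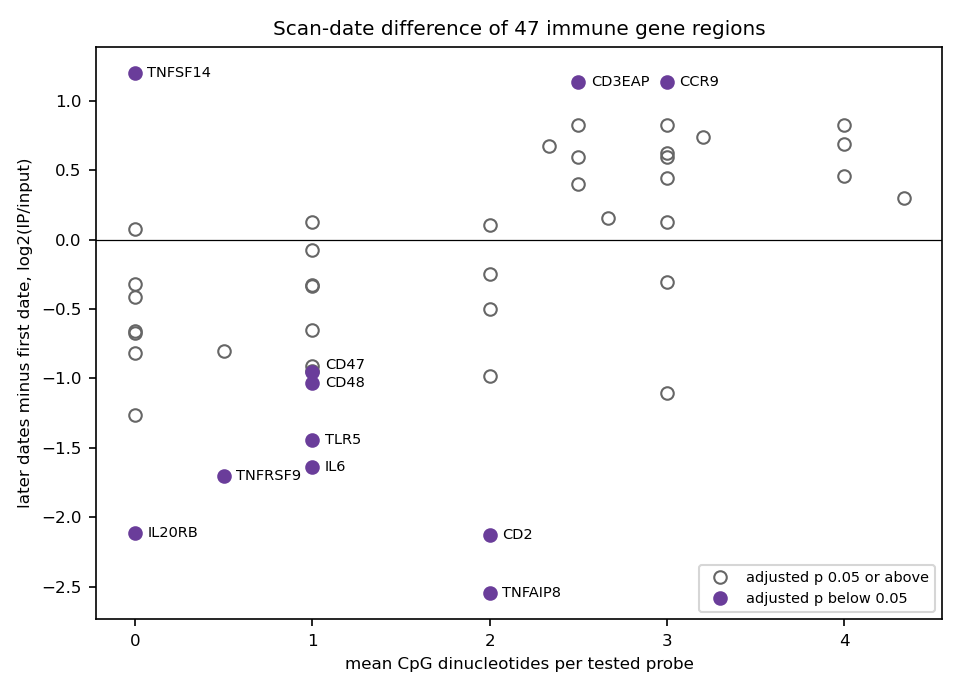
Each point is 1 of 47 immune gene regions, with the mean number of CpGs per tested probe on the horizontal axis and the difference in log2(IP/input) between later dates and first date on the vertical axis; filled points have an adjusted p below 0.05. Genes with 1 CpG or fewer lie mostly below 0 and genes with more lie mostly above.

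The direction of the date difference went with CpG content. Of the 23 genes with a mean of 1 CpG or fewer per tested probe, 20 were lower on the later dates, with a median of -0.80 log2, 7 of them called lower and 1, TNFSF14, called higher. Of the 25 genes with more CpGs, 18 were higher, with a median of 0.45, 2 of them called higher and 2, CD2 and TNFAIP8, called lower. All tested genes split alike: 78.7% of the 1363 with 1 CpG or fewer and 36.0% of the 2923 with more were lower on the later dates. Among those with 1 CpG or fewer 26.9% were called lower and 2.64% higher, and among those with more 6.19% were called lower and 9.48% higher. Input and IP signals were dimmer on the first date, as given above, and the part of signal level in this pattern was not tested.

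Within arrays the same shift appeared over the 70 tested immune gene probes. Spearman's rho between CpG count and log2(IP/input) was 0.13, -0.47 and 0.15 in subfertile bulls 1, 4 and 5, and -0.39, -0.52 and 0.33 in high-fertile bulls 2, 3 and 5. It was below 0 in the 3 bulls of the first date and above 0 in the other 3. Over all 110686 tested probes rho was -0.18 to -0.03 in the 6 bulls. Probes without CpG had medians of -0.06, 0.34 and -0.16 in the subfertile and of 0.41, 0.74 and -0.48 in the high-fertile bulls, and probes with 3 CpGs had 0.16, -0.47 and -0.01 in the subfertile and -0.35, -0.51 and 0.40 in the high-fertile bulls. These are descriptions across probes of the same arrays, which share depth and base composition.

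**Figure D4:**
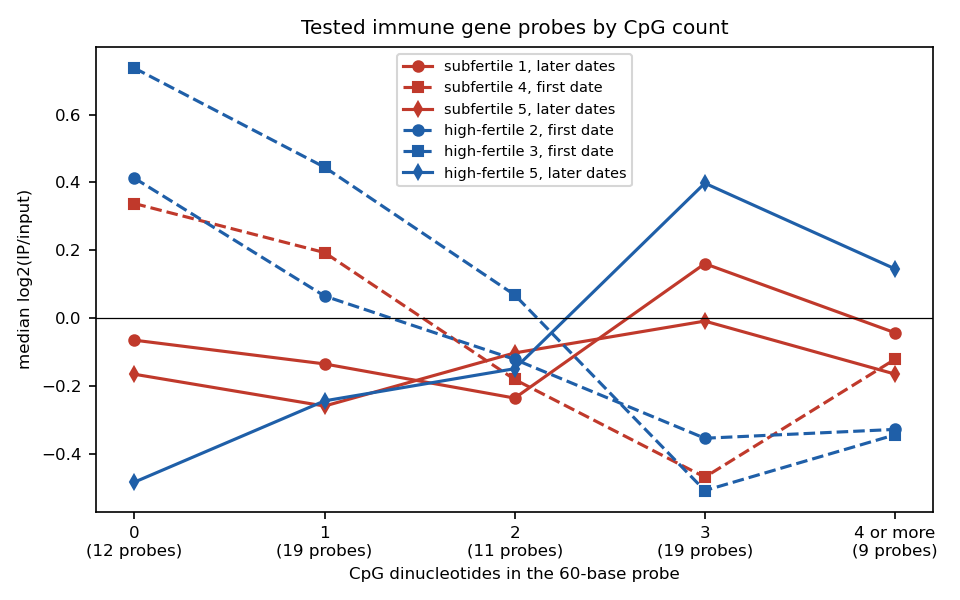
Lines give the median log2(IP/input) of the tested immune gene probes by the number of CpGs in the 60-base probe (0 to 4 or more, with the number of probes), for each subfertile (red) and high-fertile (blue) bull, solid for the later dates and dashed for the first date. The dashed lines start above 0 and end below it, whatever the group.

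Unnamed probes tile some of these regions densely, and they allow a closer look at 4 of them. Averaging in the tested probes within 250 bp of a gene's own left the group test with 0 calls, while the date test called 15 of the 48 genes, beside 28.1% of all genes. The 12 genes of the first count were among the 15, and CD9 (1.42), IL16 (0.85) and IL17RD (0.59) were added, all higher on the later dates. Around CCR9 all 13 probes were higher on the later dates. Around CD3EAP 22 of 26 were, and around IL17RD 25 of 27, but around IRF3 only 9 of 17. In CD3EAP the 4 exceptions were the probes with the highest positions, starting 116 to 140 bp after the first named probe and holding 0 or 1 CpG.

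Subfertile bulls had the higher mean at 13 of 13 probes of CCR9, 20 of 26 of CD3EAP, 16 of 27 of IL17RD and 7 of 17 of IRF3. The probes overlap and share their fragments, so they are not independent and add no replicates. For CCR9 the mean of the 13 probes gave a group difference of 0.36, and -0.04 with the session as a block.

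IRF3, a factor that turns on type I interferon genes, had 1 named tested probe and 17 tested probes in its window. A pair of neighbouring probes there, picked after the values were seen, differed in every bull. The unnamed probe starting 2 bases after the named one, with 3 CpGs, was at -0.46, -1.02 and -0.55 in subfertile and at -1.61, -0.97 and -0.15 in high-fertile bulls. The probe 8 bases further on shares 52 of its 60 bases, has 1 CpG, and was at 1.21, 0.27 and 1.62 in subfertile and at 2.15, 0.79 and 1.29 in high-fertile bulls. The step was upward in all 6 bulls, by 1.67, 1.30 and 2.17 in the subfertile and by 3.76, 1.77 and 1.45 in the high-fertile bulls. Both sequences are printed above, and the 2 CpGs that drop out lie in the first bases of the earlier one. The cause of the step was not tested.

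Spots with the same sequence show the measurement error directly. Both CD3EAP spots starting at 52803176 carry the same 60 bases: the named spot was at 0.85, 0.10 and 0.79 in subfertile and at -0.46, -0.35 and 0.89 in high-fertile bulls, and the unnamed one at 0.89, -0.67 and 0.58 in subfertile and at 0.52, 0.54 and 0.93 in high-fertile bulls. On the first date, in subfertile bull 4 and high-fertile bulls 2 and 3, the spots differed in sign. The order of the groups turned as well. Means of the named spot were 0.58 in subfertile and 0.03 in high-fertile bulls, and those of the unnamed spot were 0.26 and 0.67. Over 10 such pairs among the immune gene probes the median absolute difference was 0.09, 0.35 and 0.15 log2 in subfertile and 0.38, 0.29 and 0.11 in high-fertile bulls.

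**Figure D5:**
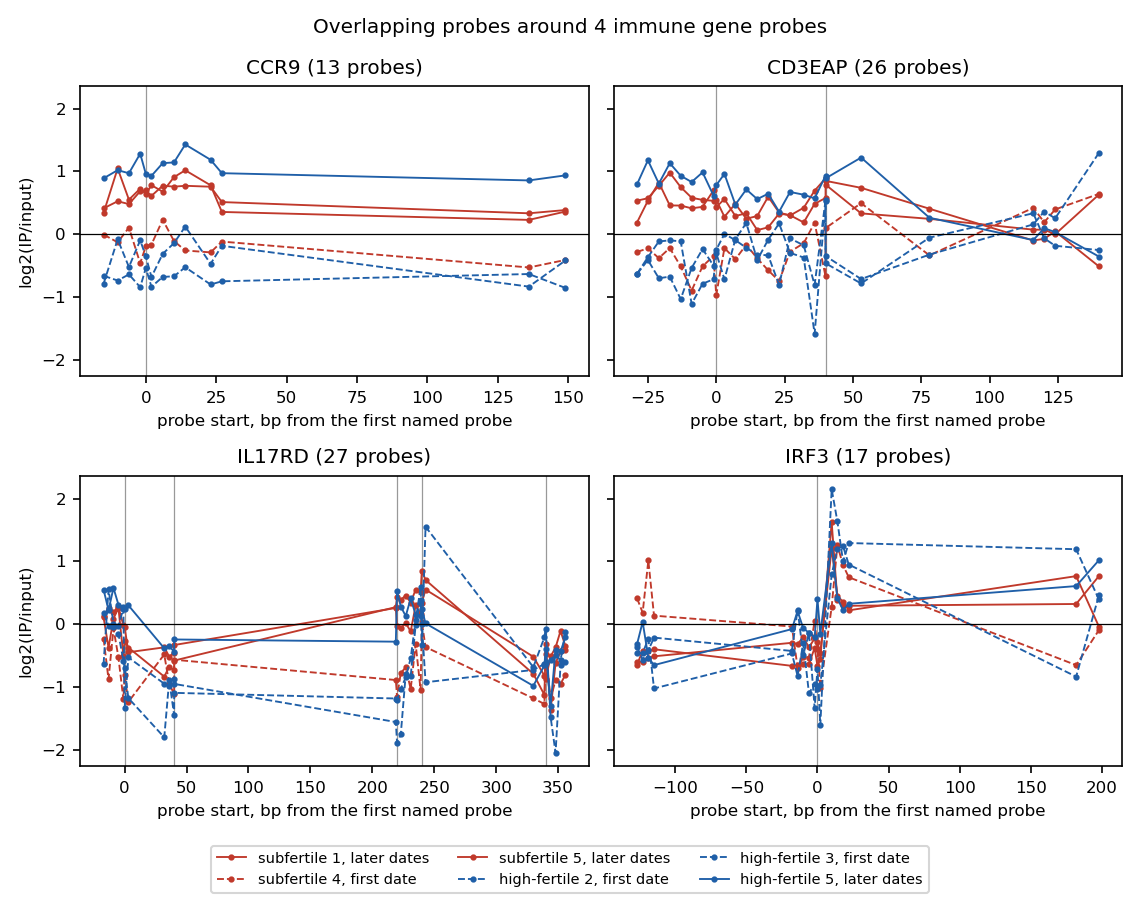
Points are log2(IP/input) of single probes around the named probes (grey lines) of CCR9, CD3EAP, IL17RD and IRF3, by the distance of the probe's start from the first named probe in bp, for each subfertile (red) and high-fertile (blue) bull, solid for the later dates and dashed for the first date. At CCR9 every solid line is above every dashed one at all 13 probes, and at IRF3 all 6 bulls step upward within 8 bases.

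With no filter on input signal all 134 genes gave a value, and the date test called 46 of them, all lower on the later dates, beside 35.2% of 7932 genes. The group test called 0 (limma; 2 at an unadjusted p below 0.05), with a median difference of -0.39 log2 over the 134 genes, beside -0.25 over all 7932. With the session as a block these medians were -0.04 and 0.01. Those values include probes whose input is not well above background, mostly on the first date.

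Genes that relay these signals inside the cell were compared in the same fit. Of 86 listed genes of cytokine, Toll-like receptor and antigen receptor signalling, 40 were named on the array and 20 were tested. In the group test 0 were called (limma; 0 at an unadjusted p below 0.05), 9 were above 0 and 11 below, and the median was -0.01 log2. Between dates SARM1, a negative adaptor of Toll-like receptor signalling, was higher on the later dates (1.53, limma, adjusted p = 0.0267), and IRAK4, a kinase of Toll-like receptor signalling (-2.15), and NFKB1, a subunit of NF-kappa B (-1.26), were lower. IKBKE, a kinase that activates interferon regulatory factors, had the most negative group difference among them (-1.02, SE 0.44). Of the listed marker genes, 2 of 9 for leukocytes, 2 of 12 for sperm and spermatids and 4 of 6 for epithelium were tested, and none was called in either comparison. The group difference was -0.13 (SE 0.40) for PTPRC, the pan-leukocyte antigen CD45, and 0.11 (SE 0.35) for RUNX3, a transcription factor of T cells, and their differences between dates were -0.69 and 0.70.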

How the data were processed

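The deposited scanner output gives a linear intensity for each spot and dye. It was made with Agilent Feature Extraction 10.7.3.1, with detrending and linear dye normalization, per the file headers. The authors' log10 ratio is red (IP) over green (input), and the deposited series table holds it on the log2 scale, with column medians of -0.02, 0 and -0.04 for subfertile bulls 1, 4 and 5 and 0, -0.01 and -0.04 for high-fertile bulls 2, 3 and 5, so it was not centred. Here the log2 ratio of the processed signals was taken, and the median of an array's non-control probes subtracted; neither loess nor quantile normalization was applied. Gene names stand in 3 of the 6 files and were joined to the others by probe. Of the 134 gene names, 109 are symbols and 1 a synonym in the RefSeq gene table of buffalo assembly NDDB_SH_1, used for names only; the other 24 were kept as the files give them. No dyes were swapped, which leaves any dye bias of a probe in every array, and the number of arrays limits precision.

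Differences were fitted by lmFit and eBayes of limma 3.58.1, run under R 4.3.3, as 2-sided tests with Benjamini-Hochberg adjustment over 4286 gene regions or 110686 probes and a threshold of 0.05. The group test was tested on simulated data with 200 changed genes, of which the recovered shares are given above with 10 false calls. Files were read and summarised with the data.table package (1.17.8), pandas 2.3.3 and scipy 1.17.1, and plots drawn with matplotlib 3.10.9. Alternatives were session, slide, background correction, filters, centring, the deposited table, probes per gene and leaving out each bull; the window of 250 bp, the larger slide alone and the unfiltered fit with the session block were chosen after seeing the data. The genes and lists were chosen with earlier results of these data known. Named with values are up to 6 genes a direction by group p, the 4 highest and 4 lowest levels, genes with 3 or more tested probes and up to 6 genes a direction called between dates, and 3 probes a direction by group p. Values of any other gene, the tiled regions and the IRF3 pair were chosen after their values were seen. 1 tested gene is counted but not reported by name here or in the plots.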

Additional observations from a re-analysis of the deposited data

How the results depend on the processing

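No paired analysis was possible because the groups share only 1 bull number. The group test called 0 gene regions and 0 probes under every alternative run except the later dates alone, which gave 95 gene regions, 2 of them immune genes, and 34 probes. Leaving out each bull in turn also gave 0 group calls. The date test, at 861 gene regions and 12 immune genes, called 1420 gene regions with normexp correction, 2793 and 46 with no filter, and 153 and 2 with at least 3 tested probes per gene. Leaving out 1 bull gave 0 to 1372 gene regions and 0 to 17 immune genes, the zeros without high-fertile bull 5 or subfertile bull 4, and 332 and 7 without subfertile bull 1, and 196 and 1 without subfertile bull 5. The interaction of group and date, at 0 calls, gave 2 with normexp and 0 to 417 on leaving out a bull (365 without high-fertile bull 2, 417 without high-fertile bull 3). The median group difference over immune genes was -0.39 with no filter and -0.12 to 0.06 on leaving out a bull.

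Signs of single genes turned as follows, with no adjusted p below 0.05. On the later dates alone the group difference was -0.13 for TNFRSF1A, -0.25 for TNFRSF4, -0.46 for CCR6, -0.29 for CCR9 and 0.027 for IL1R1. It was -0.18 for the CCR6 probe and -0.069 for the CD3EAP probe. With no filter TNFRSF1A was at -0.069, and with the session block added at -0.054, where IL6 was at 0.20. With the block CCR9 was at -0.020, and at -0.039 with the window and the block. IL6 was at 0.014 on the first date alone. Leaving out 1 bull gave -0.058 (without high-fertile bull 3) to 0.73 for CCR6. Adjusted p for CXCL10 ranged from 0.0197 to 0.99996 and for CD8B from 0.0513 to 0.99996. The cause was not tested. Dim IP signal on the first date limits the low end: only 27 of the 48 genes had a probe with IP well above background on all 6 arrays.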
